A study of Mus musculus with 7 samples.

Results

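The 10 genes described here are the Id genes Id1, Id2, Id3 and Id4, the inhibitory Smads Smad6 and Smad7, the ligand genes Bmp2, Bmp4 and Inhba, and the antagonist gene Fst, out of 19938 genes measured on 7 mouse expression arrays. They were taken by name, each through its probe set with 1 gene symbol, and each gene had 1 such probe set. The genes had been picked with their values on these arrays in view, so those values are a description and carry no test. Messenger RNA levels are given as log2 expression, where a difference of 1 is a 2-fold change, and a level of one gene is not set against that of another.

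Mouse embryonic fibroblasts (MEFs), isolated at 13.5 days post coitum from 129/OG2 mice, were grown in FBS medium (1 array) or in a medium named iCD1 (1 array). The induced pluripotent stem (iPS) lines O4-1, O4-2 and O4-4 were derived by infecting MEFs with Oct4; each was profiled in KSR medium (3 arrays), and O4-1 also in N2B27(2i) (1 array), where 2i stands for a pair of inhibitors of the kinases MEK and GSK3. Embryonic stem (ES) cells with the OG2 background were profiled in N2B27(2i) (1 array). The labels give no genetic background for the iPS arrays. OG2 denotes a GFP reporter transgene under regulatory sequence of the Oct4 gene. KSR and 2i are the media in the titles and growth-condition labels. The source label of the same 4 iPS arrays names iCD1 instead, which can be read as the medium of induction or of culture, so every difference between KSR and 2i rests on the titles and growth-condition labels. No MEF was in KSR or 2i medium and no ES cell was in KSR, so that cell type and medium cannot be told apart between MEFs and iPS cells, and neither can cell origin and medium between ES cells and KSR lines. Whether the 3 lines came from separate derivations is not given in the labels, so p-values measure the spread between these 3 lines only.

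Bone morphogenetic proteins (BMPs) and activins are secreted ligands of the TGF-beta superfamily. They bind pairs of type I and type II receptor kinases, which phosphorylate receptor Smads: Smad1, Smad5 and Smad9 for BMPs, Smad2 and Smad3 for activins and TGF-beta. With Smad4 these enter the nucleus, where the Id genes are the best known direct targets of the BMP branch. Id proteins have a helix-loop-helix domain but no DNA-binding region, and they hold E proteins and other helix-loop-helix factors off the DNA. Smad6 and Smad7 are induced by the pathway and block it in turn. In mouse ES cells BMP together with LIF supports self-renewal through Id genes, and 2i medium replaces that need for serum or BMP.

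The promoters of 6 of the 10 genes were searched, taken from RefSeq (GRCm38.p6). Id1, Bmp2 and Fst had no entry that was used, and Smad7 was left out by its chromosome. None of these was searched for motifs. The promoters of Id2, Id3 and Id4 are shown because Id genes are the targets through which BMP signalling is usually read. Each sequence is the 250 bases before the annotated start, and capitals mark the letters GGCGCC, a GC-rich element bound by BMP-activated Smads, or CAGAC and its reverse complement GTCTG, the CAGA-type Smad box.
Id2, chr12:25096093-25096342, minus strand: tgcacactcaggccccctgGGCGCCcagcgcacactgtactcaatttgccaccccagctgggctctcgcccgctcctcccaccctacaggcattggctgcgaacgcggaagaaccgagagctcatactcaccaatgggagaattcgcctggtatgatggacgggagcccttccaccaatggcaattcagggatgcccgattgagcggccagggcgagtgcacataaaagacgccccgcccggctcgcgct
Id3, chr4:136143572-136143821, plus strand: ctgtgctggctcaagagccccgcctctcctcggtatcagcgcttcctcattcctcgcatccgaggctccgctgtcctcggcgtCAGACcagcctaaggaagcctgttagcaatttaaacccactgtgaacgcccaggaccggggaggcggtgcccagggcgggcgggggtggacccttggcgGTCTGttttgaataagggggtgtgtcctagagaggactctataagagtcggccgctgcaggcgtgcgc
Id4, chr13:48260866-48261115, plus strand: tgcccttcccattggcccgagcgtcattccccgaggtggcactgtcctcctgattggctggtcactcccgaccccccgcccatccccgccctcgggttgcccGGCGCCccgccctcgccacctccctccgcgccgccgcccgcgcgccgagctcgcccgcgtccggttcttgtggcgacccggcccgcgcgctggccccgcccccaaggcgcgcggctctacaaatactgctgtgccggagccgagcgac
In the 300 bases that reach from 250 before to 50 after the start, GGCGCC stood once upstream of Id2 (first base at -231) and once upstream of Id4 (-148), and CAGAC or GTCTG stood at 2 places upstream of Id3 (-167 and -68). Of all 32851 such windows 11.9% held GGCGCC and 49.6% held CAGAC on either strand. The Smad6 window held the palindrome GTCTAGAC, a known Smad-binding element, across the start itself, from -4 to 4, as did 0.213% of all windows at any place.
Smad6, chr9:64022048-64022071, minus strand, 24 bases around the start: gccaaagtGTCTAGACtggcatat
The windows of Bmp4 and Inhba held none of the 3 motifs. GTCTAGAC was searched beside the other motifs and does not contain CAGAC or GTCTG. These matches describe letters in the windows, and no binding was measured.

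The arrays had medians between 4.97 and 5.03 over 28853 probe sets, and no detection call came with the values. Levels under the median are not separated from background, and a difference against one may be understated. Among the 10 genes this holds for Id2 on all 4 iPS arrays, Bmp2 on every array but MEFs in iCD1, Inhba in O4-1 in both media, Fst in O4-1 in 2i and Bmp4 in O4-4. Labelled cell types were checked by their markers. The mean log2 level of 8 pluripotency genes was 4.15 and 4.16 on the MEF arrays and between 9.85 and 10.43 on the other 5, among them the ES array, whose source label names fibroblasts. The mean of 10 fibroblast genes was 9.24 and 10.09 on the MEF arrays, between 6.66 and 7.15 in the KSR lines, 6.04 in iPS cells in 2i and 6.82 in ES cells. The lists for macrophages, endothelium and extraembryonic endoderm lay at means between 3.94 and 5.78 on all arrays.

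The first comparison asked how the BMP and activin genes of Oct4-derived iPS cells in KSR differed from those of the fibroblasts. Id1, Id2, Id3 and Id4, Smad6, Bmp2, Bmp4, Inhba and Fst were each lower in all 3 KSR lines than on both MEF arrays, and Smad7 overlapped. That is 9 of 10 genes, where 26.0% of all 19938 genes lay below both MEF arrays in all 3 lines, and since the choice of genes used these values nothing is read from the count. RNA of a whole culture was measured, so fewer cells of a type and less RNA per cell cannot be told apart.

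Id1, which encodes an inhibitor of E proteins, was at 7.36 in MEFs in FBS and 7.58 in iCD1, at 5.50, 5.76 and 5.23 in KSR lines O4-1, O4-2 and O4-4, at 5.36 in iPS cells in 2i and at 5.64 in ES cells in 2i. The MEF arrays stood apart from all 5 pluripotent arrays, which lay within the spread of the KSR lines. The KSR mean minus the MEF mean was -1.97 ± 0.20 (limma's SE, n = 3 KSR lines, with the 2 MEF arrays averaged), a 3.93-fold lower level. Here and below the SE draws on the spread of the KSR lines, and the difference between the MEF arrays does not enter it. Id3 had the same order of MEFs over pluripotent cells, with 8.43 and 8.55 in MEFs grown in FBS and iCD1 and with 6.29, 6.37 and 6.38 in KSR lines O4-1, O4-2 and O4-4. It was 4.42-fold lower in KSR, a difference of -2.14 ± 0.09 (SE). Its KSR lines spanned only 0.09, the smallest range of the 10 genes, while those of Id1 spanned 0.53.

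Id2, a relative that is widely induced in differentiating cells, was at 6.94 in MEFs in FBS and 7.37 in iCD1, at 4.46, 4.97 and 4.75 in KSR lines O4-1, O4-2 and O4-4, at 4.21 in iPS cells in 2i and at 6.43 in ES cells. Among the pluripotent arrays the ES array was the high one, closer to MEFs in FBS than to any iPS array. The difference between KSR lines and MEFs was -2.43 ± 0.19 (SE), a 5.40-fold lower level. Id4, which is known from neural and germline precursors, showed a smaller step, with 7.42 and 6.70 in MEFs grown in FBS and iCD1, 6.14, 6.03 and 5.99 in the KSR lines in the same order, 6.08 in iPS cells in 2i and 6.78 in ES cells. Here ES cells lay above MEFs in iCD1 by 0.09, slightly more than the SD of the KSR lines (0.08). The KSR mean of Id4 was 1.01 ± 0.09 (SE) lower than the MEF mean, by 1.37 against the FBS array and by 0.64 against the iCD1 array.

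**Figure D1:**
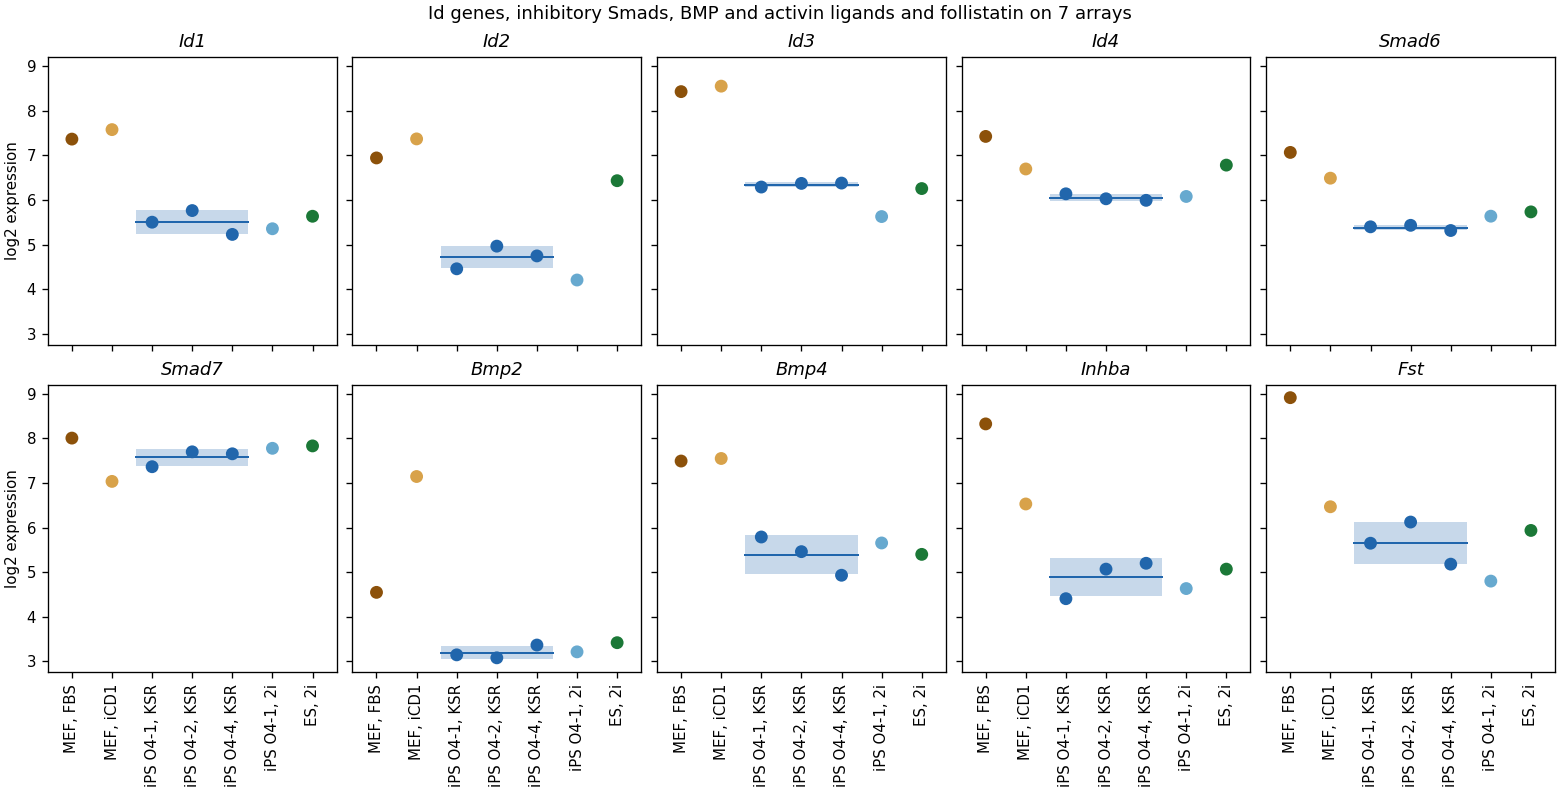
Log2 expression of the 10 genes (1 panel each) on the 7 arrays, with a dot for each array, and the mean (line) and SD (band) of the 3 KSR lines. Both MEF dots lie above the KSR lines for every gene but Smad7, Bmp2 is high in MEFs in iCD1 only (7.14), and Id2 is high in ES cells (6.43) among the pluripotent arrays.

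The inhibitory Smads differed from each other. Smad6, which acts mainly on the BMP branch, was at 7.07 and 6.49 in MEFs grown in FBS and iCD1, at 5.40, 5.43 and 5.32 in KSR lines O4-1, O4-2 and O4-4, at 5.64 in iPS cells in 2i and at 5.73 in ES cells. All pluripotent arrays were below both MEF arrays, and the KSR mean was 1.39 ± 0.09 (SE) lower, a 2.63-fold lower level. Smad7, which blocks the BMP as well as the activin and TGF-beta branch, was at 8.01 and 7.03 in MEFs grown in FBS and iCD1, at 7.36, 7.70 and 7.65 in the KSR lines, at 7.78 in iPS cells in 2i and at 7.83 in ES cells. Every pluripotent array lay between the MEF arrays. The difference between KSR lines and the MEF mean was 0.05 ± 0.15 (SE), from -0.43 against the FBS array to 0.54 against the iCD1 array, so that its sign depended on the MEF array.

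The ligand genes and Fst were lower in the KSR lines, but for Bmp2, Inhba and Fst the size differed with the MEF array. Bmp4, which encodes a ligand that activates Smad1 and Smad5, was at 7.49 and 7.55 in MEFs grown in FBS and iCD1 and at 5.79, 5.46 and 4.93 in KSR lines O4-1, O4-2 and O4-4, a difference of -2.13 ± 0.30 (SE). Its level was 5.66 in iPS cells in 2i and 5.40 in ES cells, inside the range of the KSR lines. Bmp2, which encodes a close relative of Bmp4, was at 4.55 in FBS and 7.14 in iCD1, at 3.15, 3.08 and 3.37 in the KSR lines, at 3.22 in iPS cells in 2i and at 3.42 in ES cells. The KSR mean of Bmp2 was 3.95 below the iCD1 array and 1.35 below the FBS array.

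Inhba, which encodes the subunit of activin A, was at 8.32 and 6.53 in MEFs grown in FBS and iCD1, at 4.41, 5.07 and 5.20 in KSR lines O4-1, O4-2 and O4-4, at 4.63 in iPS cells in 2i and at 5.07 in ES cells. Fst encodes follistatin, a secreted protein that binds activin and, less tightly, BMPs. It was at 8.91 and 6.47 in MEFs grown in FBS and iCD1, at 5.65, 6.12 and 5.18 in the KSR lines in the same order, at 4.80 in iPS cells in 2i and at 5.94 in ES cells. For both genes the FBS array was the highest of all. The KSR mean of Inhba was 3.43 below MEFs in FBS and 1.64 below MEFs in iCD1, and that of Fst 3.26 and 0.82. The KSR lines spanned 0.94 for Fst, the widest range of the 10 genes, then 0.86 for Bmp4 and 0.79 for Inhba. Line O4-4 had the lowest Fst and Bmp4 values of the 3 lines and the highest Inhba value.

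Other genes of the pathway were tested with limma (Benjamini-Hochberg adjustment over all 19938 genes at 0.05). They were listed by role with earlier results of these data known, so the shares called are no independent support. Of 93 measured genes 35 fell and 5 rose in the KSR lines against MEFs, that is 43.0% against 26.4% of all genes called in either direction (14.3% lower, 12.1% higher). The median difference was -0.46 over these genes and 0.00 over all genes. The adjusted p of the genes that fell ran from 0.00659 to 0.0395 and that of the genes that rose from 0.00659 to 0.0479 (limma). Without line O4-4 limma called 26 of the 93. Without line O4-1 or without line O4-2 it called 0 of them and 0 of all genes, although 5804 and 6924 of all genes reached an unadjusted p of 0.05; among the 40 called genes the lowest adjusted p was then 0.0833 and 0.0503 (limma).

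By role, the share called in either direction was 23.1% of BMP ligands and 33.3% of receptors, which is near the 26.4% of all genes, so nothing is read from those counts. It was 54.5% of activin and TGF-beta ligands, 43.8% of Smads and regulators, 46.7% of antagonists and 45.5% of other BMP targets, each a list of 11 to 16 genes. Of 13 other BMP ligands 3 fell and 10 did not pass: Bmp5 fell by 2.35 ± 0.23 (SE), Gdf10 fell by 0.90 ± 0.10 and Gdf6 fell by 0.55 ± 0.09. Gdf6 lay under the array median on every array, so its levels are not separated from background. Of 11 activin and TGF-beta ligands 5 fell: Tgfb3 fell by 3.75 ± 0.19, Tgfb2 fell by 3.70 ± 0.26, Tgfb1 fell by 1.73 ± 0.17, Gdf11 fell by 1.47 ± 0.14 and Inhbb, another activin subunit gene, fell by 1.22 ± 0.15. Gdf3, a ligand gene of pluripotent cells, was the member of that list that rose, from 4.72 and 5.01 on the MEF arrays to 7.59, 7.63 and 7.75 in the KSR lines. Bmp5 and Tgfb3 lay under the array median in all 3 KSR lines, Tgfb2 in O4-1 and O4-2, and Tgfb1 in O4-4. Gdf3 lay under it on both MEF arrays. The sizes of these differences are therefore not exact. Of 18 receptors and co-receptors 5 fell and 1 rose. Of the type II receptor genes Acvr2a and Amhr2 did not pass, at -0.33 ± 0.21 and 0.35 ± 0.15 (limma, adjusted p = 0.351 and 0.186). Those that passed went both ways. Bmpr2, which serves BMPs, fell by 1.29 ± 0.09, Tgfbr2, which serves TGF-beta, fell by 2.48 ± 0.20, and Acvr2b, which serves activin and Nodal, rose by 1.28 ± 0.17. Tgfbr3 fell by 2.36 ± 0.40, Rgmb fell by 0.85 ± 0.17 and Bmpr1b fell by 0.77 ± 0.12. Bmpr1b lay above the array median only in MEFs in FBS (5.17), and Acvr2b lay under it in MEFs in iCD1 (4.94).

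All 3 BMP-type receptor Smad genes were lower: Smad5 fell by 0.82 ± 0.11, Smad1 fell by 0.72 ± 0.11 and Smad9 fell by 0.72 ± 0.08. In the activin and TGF-beta branch Smad3 fell by 1.40 ± 0.16, while Smad2 was at 0.11 ± 0.22 and the shared partner Smad4 at 0.03 ± 0.10 without passing (limma, adjusted p = 0.784 and 0.855). Among the other regulators Pmepa1, an inhibitor that TGF-beta induces, fell by 1.80 ± 0.22, the ubiquitin ligase gene Smurf2 fell by 0.69 ± 0.10 and the corepressor gene Tgif1 rose by 0.59 ± 0.13. That makes 6 falls and 1 rise among 16 genes. Of 15 secreted antagonists 7 fell and 0 rose. The BMP antagonist gene Grem1 was at 8.06 and 7.98 in MEFs and at 5.20, 4.87 and 5.17 in the KSR lines, a fall of 2.94 ± 0.15. Fstl1, a follistatin-like gene, fell by 3.09 ± 0.34, Htra1 fell by 2.20 ± 0.12 and Nbl1 fell by 1.78 ± 0.20. Noggin (Nog) and chordin (Chrd), which bind BMPs, did not pass, at -0.10 ± 0.10 and -0.01 ± 0.12 (limma, adjusted p = 0.527 and 0.985).

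Of 11 other BMP targets 4 fell and 1 rose. Atoh8 fell by 2.00 ± 0.12, Gata3 fell by 0.93 ± 0.14, Gata2 fell by 0.77 ± 0.15 and Dlx5 fell by 0.64 ± 0.09. Alpl, the alkaline phosphatase gene that is also a stain of pluripotent cells, rose by 3.66 ± 0.35. Atoh8 lay under the array median in all 3 KSR lines and Alpl on both MEF arrays, so these sizes are not exact. Of 6 TGF-beta targets Tgfbi fell by 4.14 ± 0.14, Ccn1 fell by 2.24 ± 0.21 and Klf10 rose by 0.93 ± 0.13. Ccn2 passed at -0.60 ± 0.10 against the MEF mean, but its direction turned with the MEF array. MEFs had 9.39 (FBS) and 7.49 (iCD1) and the KSR lines 7.81, 7.76 and 7.94, which is -1.55 against the FBS array and 0.35 against the iCD1 array. The other 34 genes called lower lay below both MEF arrays in all 3 lines. The E proteins are the partners that Id proteins bind. Tcf12 fell by 2.15 ± 0.19 and Tcf4 fell by 2.07 ± 0.11, and Tcf3 was at 0.12 ± 0.12 without passing (limma, adjusted p = 0.545). The fibroblast marker list, at means of 9.24 and 10.09 in MEFs and of 6.66 to 7.15 in the KSR lines, moved in the same direction as these falls, and its part in them was not tested.

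**Figure D2:**
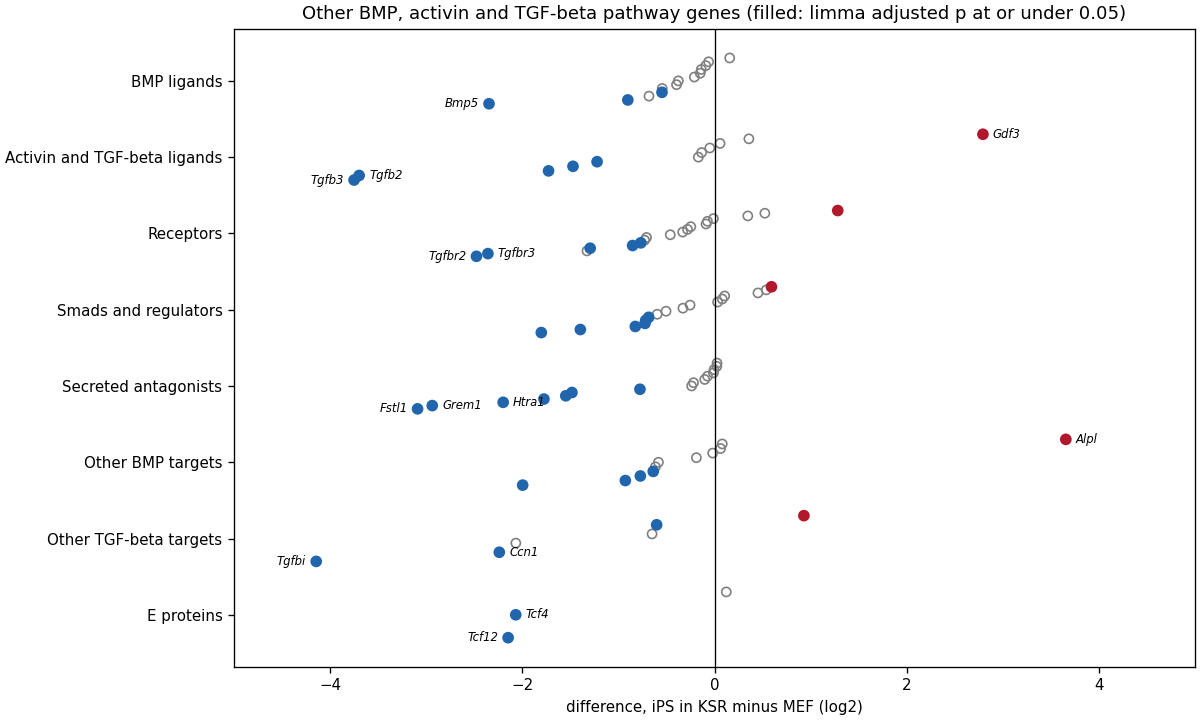
Difference in log2 expression between the 3 KSR iPS lines and the MEF arrays for 93 pathway genes other than the 10, by role. Filled dots passed limma's adjusted p of 0.05 (35 lower in blue, 5 higher in red), open dots did not, and passing genes with a difference of 2 or more in size are named.

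The MEF arrays were compared to see how the pathway differed between fibroblasts in iCD1 and in FBS, with 1 array each and so without a test. Bmp2 was 2.60 higher in iCD1, where the FBS value (4.55) lay under the array median, so that the size of the difference is not exact. Fst was 2.44 lower, a 5.44-fold difference at rank 7 from the bottom of 19938 genes, and Inhba was 1.79 lower, a 3.47-fold difference at rank 34 from the bottom. These were the 3 of 10 genes past 2-fold, where 2.70% of all genes were (1.70% higher, 0.998% lower). Smad7 lay just short of 2-fold (-0.97) and passed it with quantile normalization (-1.03). The choice of genes used these values, so nothing is read from the count.

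The Id genes differed less. Id1, Id2 and Id3 were 0.21, 0.43 and 0.12 higher in iCD1, of which the first pair lay within the range of the KSR lines for the same genes (0.53 and 0.51) and Id3 slightly outside its own (0.09). Bmp4 was 0.06 higher, also within that range (0.86). Id4 was 0.73 lower, Smad6 0.58 lower and Smad7 0.97 lower, each more than the KSR lines spanned (0.15, 0.12 and 0.33). Of the 10 fibroblast markers 5 were higher and 5 lower in iCD1, with Lum at 9.94 against 6.06 and a list mean of 10.09 against 9.24. Of 6 macrophage markers 3 were higher, namely Lyz2 (6.83 against 4.99), Cd68 and Adgre1. The others were lower, namely Csf1r (4.46 against 4.97), Ptprc (3.70 against 4.01) and Fcgr1 (3.71 against 3.79). The part of either list in the differences of the 10 genes was not tested.

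**Figure D3:**
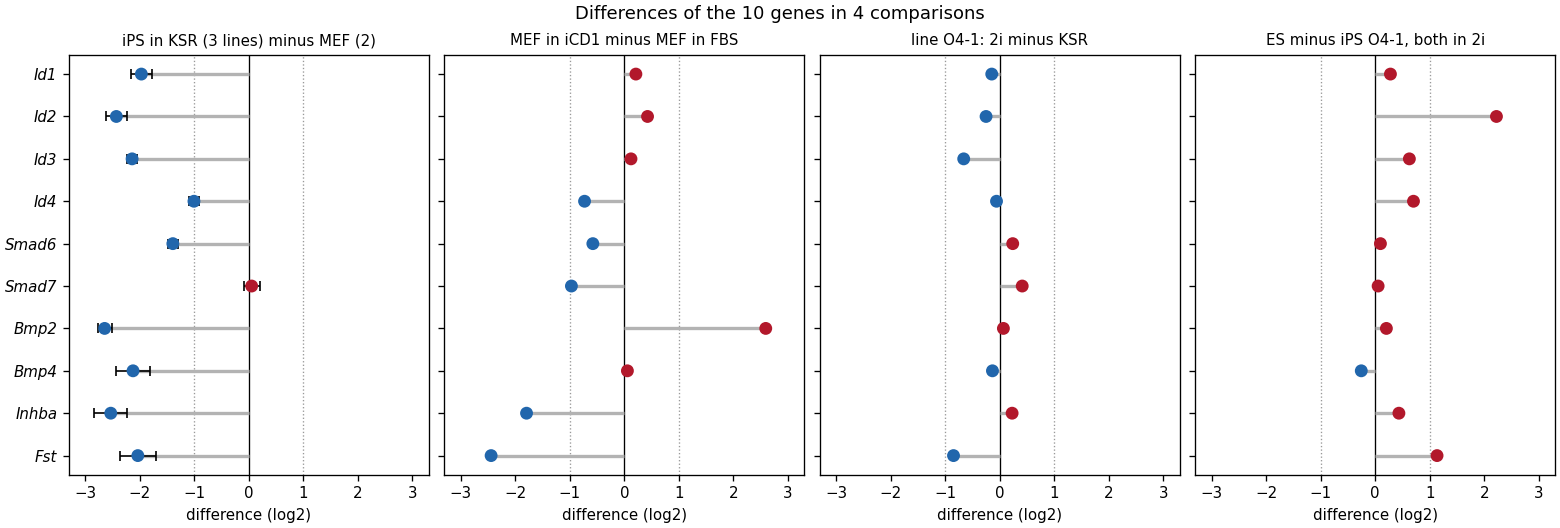
Difference in log2 expression of the 10 genes in 4 comparisons, with limma's standard error for the KSR lines against MEFs and no error for the 3 comparisons of 1 array with 1; dotted lines mark 2-fold. Bmp2 (2.60) and Fst (-2.44) part in the MEF media, and Id2 (2.23) stands out between ES and iPS cells in 2i; the lower value of Bmp2 and that of Id2 lie under the array median, so those sizes are not exact.

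Line O4-1 was grown in both KSR and 2i, which compares the media within 1 line, with 1 array each and no test. Of the 10 genes 0 differed 2-fold, as 1.43% of all genes did (0.481% higher and 0.953% lower in 2i). Fst was 0.85 lower in 2i, at 4.80 against 5.65, and Id3 was 0.66 lower, at 5.63 against 6.29. Smad7 was 0.41 higher, Smad6 0.24 higher and Inhba 0.23 higher. Id2, Id1, Bmp4 and Id4 were lower by 0.25, 0.15, 0.13 and 0.06, and Bmp2 was 0.07 higher. The differences of Id3, Smad6 and Smad7 were larger than the range of the 3 KSR lines (0.09, 0.12 and 0.33), and those of the other 7 genes were smaller than theirs. Over all genes 9220 of 19938 were lower in 2i.

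Against all 3 KSR lines, the 2i array of O4-1 lay outside their range for 5 of the 10 genes, where 51.1% of all genes did. The count is near that share, so nothing is read from it. Id3 lay farthest outside, with 5.63 in 2i against 6.29, 6.37 and 6.38, a difference of -0.72 ± 0.11 (SE). Id2 and Fst were also below the KSR range, by -0.52 ± 0.24 and -0.85 ± 0.42 relative to the KSR mean, and Smad6 and Smad7 were above it, by 0.25 ± 0.11 and 0.20 ± 0.19. Over all genes limma called 0 in this comparison, also with a variance trend, while 1339 genes reached an unadjusted p of 0.05, of which chance alone would give 997. The fibroblast list was lower in 2i, with 9 of 10 markers below their value in O4-1 in KSR and a mean of 6.04 against 6.67. The extraembryonic endoderm list was lower as well, in 5 of 6 markers, with a mean of 4.74 against 5.32 and Dab2 at 4.72 against 6.49. The part of either list in the differences was not tested.

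ES and iPS cells were compared within 2i medium, with 1 array each and no test. The background of the iPS cells is not given, so cell origin and genetic background cannot be told apart here. Id2 was 2.23 higher in ES cells, at 6.43 against 4.21, a 4.68-fold difference. It was the largest positive difference of all 19938 genes, also with quantile normalization. The rank held with the mean over probe sets, which leaves the value of Id2 unchanged. Median centring shifts all genes alike and cannot change the rank. The iPS value lay under the array median, so the fold is not exact. Fst was 1.14 higher, a 2.20-fold difference, at 5.94 against 4.80. These were the 2 of 10 genes past 2-fold, where 0.978% of all genes were (0.672% higher and 0.306% lower in ES cells). Nothing is read from that count, since the genes were picked with these values in view. Id4 and Id3 were 0.70 and 0.63 higher in ES cells, Inhba 0.44, Id1 0.28, Bmp2 0.21, Smad6 0.10 and Smad7 0.05 higher, and Bmp4 was 0.26 lower.

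Set against all 4 iPS arrays, the ES array was higher for 5 of 10 genes (Id2, Id4, Smad6, Smad7 and Bmp2), where 20.3% of all genes were, and lower for 0 of 10, where 21.5% were. The choice of genes used these values, so nothing is read from the counts. Margins over the highest iPS array were small for Smad6 (5.73 against 5.64), Smad7 (7.83 against 7.78) and Bmp2 (3.42 against 3.37, both under the array median). For Id2 the ES array lay 2-fold or more above every iPS array, which held for 0.140% of all genes. Id3 and Fst were within the range of the iPS arrays in ES cells. Their difference within 2i came with a low value of the iPS array, which had the lowest Id3 and Fst of the 5 pluripotent arrays. Against the KSR lines ES cells were 1.71 ± 0.24 (SE) higher in Id2 and 0.73 ± 0.12 higher in Id4. Over all genes limma called 0 between ES cells and KSR lines, also with a variance trend, while 1746 genes reached an unadjusted p of 0.05.

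Fibroblast markers were also higher in the ES array than in iPS cells in 2i, in 9 of 10 cases, with means of 6.82 and 6.04, and extraembryonic endoderm markers in 6 of 6, with means of 4.91 and 4.74. Against line O4-4 in KSR, whose fibroblast mean was 7.15 and whose Id2 was at 4.75, 8 of 10 fibroblast markers were lower in ES cells and Pdgfrb (5.52 against 5.48) and Twist2 (5.26 against 5.16) were higher. The part of these markers in the Id2 difference was not tested.

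**Figure D4:**
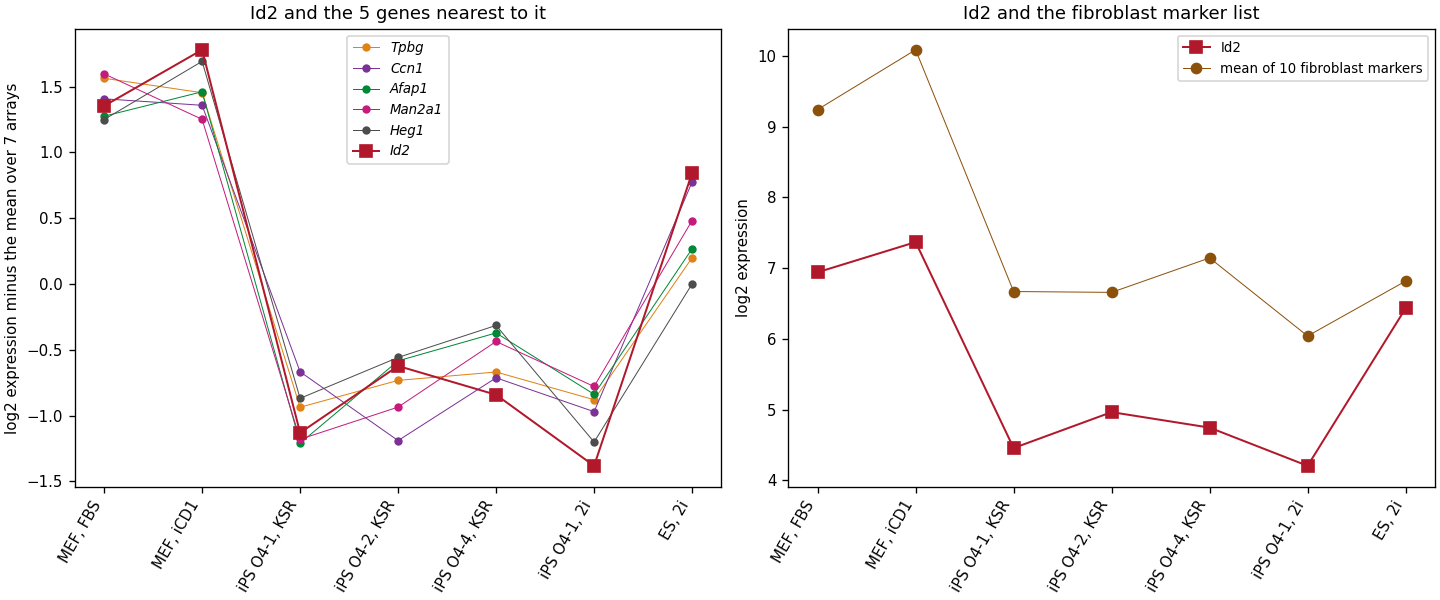
Left, log2 expression of Id2 and of the 5 genes with the nearest profiles, each minus its mean over the 7 arrays; right, log2 expression of Id2 and the mean of 10 fibroblast markers; lines only join the points. Id2 is at 6.43 in ES cells and at 4.75 in line O4-4, where the marker means are 6.82 and 7.15; the part of the markers in the Id2 difference was not tested.

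Profiles over the 7 arrays were compared by the root mean square distance between values centred per gene, in log2 units. The closest pair among the 10 genes was Id1 and Bmp4 at 0.25, followed by Id4 and Smad6 at 0.26 and Id1 and Id3 at 0.28. Fst lay nearest to Inhba, at 0.49. Over all genes the nearest to Id1 were Hoxd13 at 0.07, Bin1 and Plscr3 at 0.08 and Ier5 and Capg at 0.09, and those nearest to Id3 were Sema3d at 0.09, Tmem176a at 0.10, St3gal1 at 0.13 and Sparc and Sec24d at 0.14. Each of these was high on both MEF arrays and low on the other 5. Id2 had no neighbour as close. Its nearest were Tpbg and Ccn1 at 0.36, Afap1 at 0.37 and Man2a1 and Heg1 at 0.40, and Ccn1 was at 10.49 in ES cells against 8.53 to 9.05 on the iPS arrays. The nearest to Fst were Plaur at 0.28, Adm at 0.30, Col8a1 at 0.35, Ankrd1 at 0.38 and Tll1 at 0.39, all highest in MEFs in FBS.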

How the data were processed

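The authors deposited log2 expression per probe set, for which RMA and Partek are named in the submitters' processing notes, with versions and background settings not given in the sources used here. RNA was 100 ng a sample per the labels' protocols. The 28853 probe sets were named through the platform annotation, and of 21789 with 1 symbol 1 was kept for each of 19938 genes, that of the highest mean level. The 10 genes and all lists were chosen with earlier results of these data known. In the pathway list 93 of 96 genes were measured, 3 through a synonym, and the others were not analysed here. Groups followed titles and growth conditions; the source labels name iCD1 for the iPS arrays and fibroblasts for the ES array, and the descriptions name iPS cells on all arrays. Differences were fitted with limma 3.58.1 in R 4.3.3 (1 fit of 5 groups, eBayes, two-sided, Benjamini-Hochberg over all genes, adjusted p at 0.05). The 3 KSR lines gave 2 residual degrees of freedom, and a single array was assumed to vary like them. Pairs of single arrays were compared by size, counted at 2-fold. The script was tested on simulated data. Named were all 10 genes, pathway genes past the threshold (at most the 4 largest each way in a role) or, between single arrays, 2-fold apart, and the 5 nearest profiles of Id1, Id2, Id3 and Fst; genes named beyond that were chosen after their values were seen. Alternatives were each KSR line left out, a low-value filter, means over probe sets, quantile normalization, median centring, a variance trend and other MEF groupings. The number of arrays limits the precision.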

Additional observations from a re-analysis of the deposited data

How the results depend on the processing

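Calls between KSR lines and MEFs depended on the lines kept. Leaving out 1 line, limma called from 0 to 2776 genes in place of 5260, from 0 to 26 pathway genes in place of 40, and from 0 to 23 lower pathway genes in place of 35. The lowest values came without O4-1 and without O4-2 and leave 1 residual degree of freedom. Set against the FBS array alone, the KSR lines had 2968 called genes. The other counts stayed within 1.5 times under every alternative run. Of the 10 genes 9 or 10 lay below the MEF arrays whichever KSR line or MEF array was left out, an alternative added after the data were seen. Leaving out an array cannot lower that count, so nothing is read from it. The low-value filter, means over probe sets, the variance trend and pooled MEF arrays could not change a difference of the 10 genes. Each of these genes had 1 probe set. Median centring shifts all genes alike. Under the remaining alternatives no difference of 2-fold or more among the 10 genes changed sign. Differences near 0 did: Smad7 between KSR lines and MEFs (-0.43 against the FBS array alone, -0.01 without O4-2), Bmp2, Id4, Inhba and Bmp4 between a 2i array and the KSR lines. No paired analysis was possible because the groups share the number of 1 line only. No signal over background came with the values, which limits low levels such as those of Bmp2.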

Other observations

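Other pathway genes also differed 2-fold or more between MEFs in iCD1 and in FBS, 7 higher and 4 lower of 93, that is 11.8% against 2.70% of all genes, from 1 array each and with no test. Higher in iCD1 were the ligand genes Tgfb2 (9.30 against 7.24), Bmp5 (7.07 against 5.55) and Inhbb (7.58 against 6.51), the TGF-beta target Tgfbi (10.53 against 8.93), the secreted protease gene Htra1 (8.65 against 7.54) and the E protein genes Tcf4 (9.67 against 8.52) and Tcf12 (9.45 against 8.33). Lower were the contractile gene Tagln (7.23 against 9.85), the matricellular gene Ccn2 (7.49 against 9.39), Bmper, which encodes a secreted BMP-binding protein (5.46 against 6.95), and the Notch target Hes1 (6.52 against 7.74). The TGF-beta targets thus went both ways.

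Between ES and iPS cells in 2i, 4 pathway genes were 2-fold or more higher in ES cells and 0 lower, that is 4.30% against 0.978% of all genes. They were the matricellular genes Ccn1 (10.49 against 8.75) and Ccn2 (9.37 against 8.19), the follistatin-like gene Fstl1 (8.21 against 6.98) and Htra1 (6.80 against 5.64). Fstl1 in line O4-4 in KSR was at 8.28, level with ES cells, and Ccn2 there was at 7.94. Within line O4-1 the 2-fold differences were Tagln (4.84 in 2i against 6.26 in KSR) and the matrix protein gene Ltbp2 (5.21 against 6.33).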
